A study of Homo sapiens with 72 samples.

Results

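Keratins are the intermediate filament proteins of epithelial cells, and a filament is built from pairs of a type I (acidic) and a type II (basic) chain. KRT8 and KRT18 form the pair of simple, single-layered epithelia, and KRT7 and KRT19 are further simple-epithelial keratins. KRT81 and KRT86 belong to the hard keratins of the hair shaft, and KRT80 is a type II keratin known from differentiating epithelia. KRT18 and KRT19 are type I chains and the other 5 are type II. The 7 genes were chosen by measured values: KRT81 had the lowest fold change in knockout against wild-type cells, and the other 6 were set beside it as keratins of simple epithelia and hair. They are 7 of 61541 genes with a row in each of 11 tables, and 48 other keratin genes serve for comparison.

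The libraries come from a study of G3BP1, an RNA-binding protein that seeds stress granules, which are condensates of stalled mRNA and its bound proteins. RNA-seq of poly-A RNA was made in U2OS cells, a human osteosarcoma line, with 2 libraries a group. The first experiment had wild-type cells, a G3BP1 and G3BP2 double knockout (knockout), and knockout cells 24 h after lipofection of G3BP1 (G3BP1 rescue). The second had no wild-type cells. Its 6 groups were knockout cells, knockout cells 24 h after lipofection of wild-type G3BP1 (WT rescue) and knockout cells 24 h after lipofection of a G3BP1 with its NTF2 domain deleted (NTF2 rescue), each untreated or with 200 uM sodium arsenite for 2 h. NTF2 is the domain through which G3BP1 dimerises. RNA immunoprecipitation (RIP) compared 3 immunoprecipitated with 3 input libraries of Flp-In T-REx 293 cells, an embryonic kidney line with stable FLAG-tagged G3BP1 induced by 1 ug/mL tetracycline for 24 h. The labels name no mock-transfected group and do not say how many knockout clones were used, so rescue includes lipofection and knockout may be a single population. In bulk RNA, fewer cells that express a gene and less RNA per cell cannot be told apart.

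Libraries of the first experiment held 39.1 to 51.7 M (mega) reads in genes and those of the second 10.7 to 27.7 M reads. G3BP1 transcripts were still counted in knockout cells: the authors' deposited tables gave G3BP1 a log2 fold change of -0.56 in knockout against wild type and -0.69 in knockout against G3BP1 rescue, but 7.31 and 7.75 in the WT and NTF2 rescues of the second experiment. The labels call U2OS an epithelial cell of bone. At a base mean (the mean normalised reads over a table's libraries) of at least 100 in the first experiment, 7 of 11 osteoblast markers but 2 of 8 epithelial markers (EPCAM and CLDN4) were found, and CLDN7, ESRP1, GRHL2, OVOL1 and CRB3 were under 10. The osteoblast markers SP7, BGLAP and IBSP were under 10 as well. Of the keratinocyte and hair markers KRT5, KRT14, KRT1 and FOXN1 were under 10, while KRT10, HOXC13 and TCHH reached 100.

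KRT81 (ENSG00000205426) was close to an all-or-none transcript across the U2OS groups. Wild-type cells had 13296 and 11711 reads of it, knockout cells 21 and 17, and G3BP1-rescued cells of the first experiment 8824 and 10143. In normalised reads, that is, after division by each library's size factor, the means were 12871 ± 944 (SD, n = 2), 19.2 ± 0.923 (SD, n = 2) and 9046 ± 906 (SD, n = 2). Both knockout libraries lay far below all 4 other libraries, and both rescue libraries lay below both wild-type libraries. The ratio of means was 669-fold for wild type over knockout, 470-fold for rescue over knockout and 1.42-fold for wild type over rescue. Since KRT81 was chosen on these cells, the ratios are a description. Shrunken toward 0, the same contrasts stood in the authors' deposited tables at -8.86 (SE 0.20) for knockout against wild type, -8.01 (SE 0.18) for knockout against rescue and 0.48 (SE 0.12) for wild type against rescue. In the authors' deposited table of knockout against wild type, the gene just outside the rule, NOS1 (neuronal nitric oxide synthase), stood at -8.33.

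**Figure D1:**
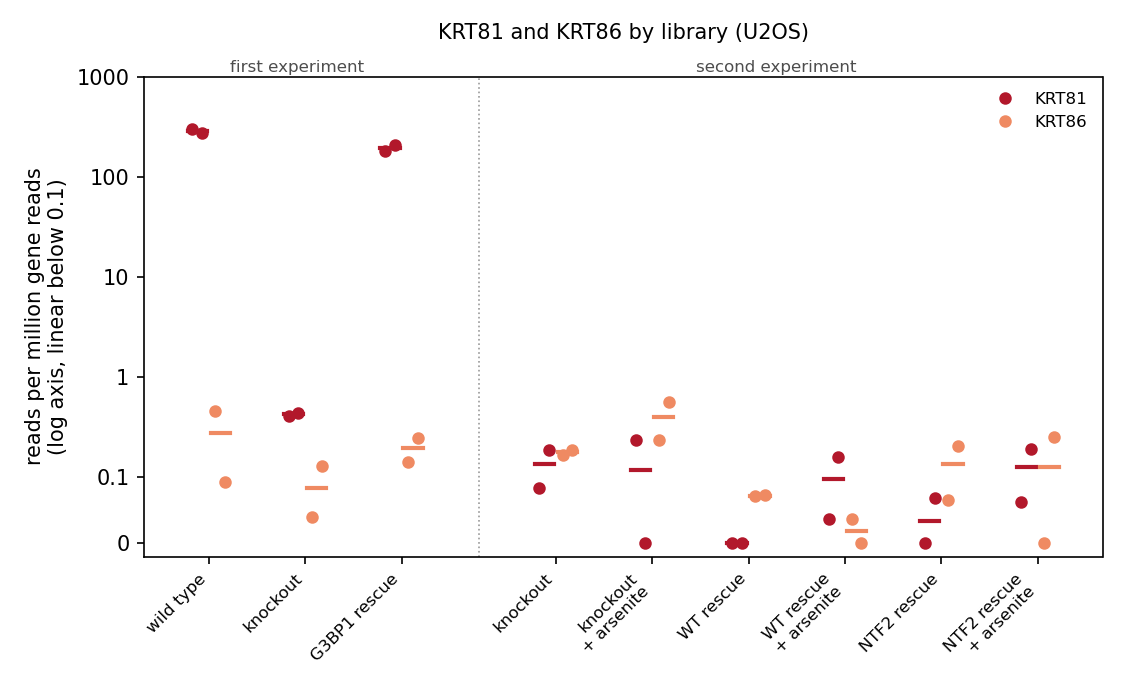
RPM (reads per 1 M gene reads) of KRT81 and KRT86 in each of the 18 U2OS libraries, on an axis that is logarithmic above 0.1 and linear below; points are libraries and short lines are group means. KRT81 lies at 178 to 299 in wild type and G3BP1 rescue of the first experiment, at 0.406 and 0.434 in its knockout, and at 0 to 0.234 in every group of the second experiment.

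KRT81 did not return in the second experiment. Over its 12 libraries only 15 KRT81 reads were counted. Untreated knockout libraries had 1 and 2 reads, WT rescue libraries 0 and 0, and NTF2 rescue libraries 0 and 1. With arsenite the reads were 3 and 0 in knockout, 1 and 3 in WT rescue and 1 and 3 in NTF2 rescue. The 6 groups differed by a few reads at most, and the authors' deposited tables gave KRT81 no adjusted p in any of the 7 comparisons. Both experiments were normalised separately, so levels were set on a common scale as RPM, the reads of a gene per 1 M reads in all genes. On it the G3BP1 rescue of the first experiment stood at 192 and the knockout at 0.42 (95% Poisson interval 0.296 to 0.574, counting error only). In WT rescue of the second experiment, 0 reads gave an interval of 0 to 0.132 RPM, and NTF2 rescue stood at 0.0341 (0.00084 to 0.185). The knockout of the second experiment was at 0.134 (0.027 to 0.383), an interval that overlaps that of the first knockout. G3BP1 lipofection for 24 h went with a high KRT81 level in the first experiment and with reads near 0 in the second, where the log2 fold change of G3BP1 itself was larger. In the first rescue KRT34 (a type I hair keratin) and NOS1 also lay far above knockout: for knockout against rescue the authors' deposited table gave -5.01 and -6.62. Whether RNA of wild-type cells was part of these rescue libraries was not tested.

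KRT86 (ENSG00000170442), the near-identical hair keratin whose annotated span contains KRT81, stayed at a few reads throughout. Wild-type libraries had 20 and 4 reads, knockout libraries 2 and 5, and G3BP1 rescue libraries 7 and 12, which makes 50 reads in these 6 libraries, and the 12 of the second experiment held 25. The libraries of wild type overlapped with those of knockout and rescue, and the knockout libraries lay below both rescue libraries, with an unshrunken log2 ratio of -1.25. The authors' deposited tables called KRT86 in no comparison in which it was tested, with log2 fold changes of -0.26 (SE 0.27, adjusted p 0.497) in knockout against rescue and 0.11 (SE 0.25, adjusted p 0.81) in wild type against rescue. Without the first wild-type library the unshrunken log2 ratio of wild type to rescue went from 0.44 to -1.12, so its sign rests on 1 library. Reads of KRT81 and KRT86 could be exchanged in counting, because the genes are close paralogs and overlap. Whether counting used the strand is not given in the sources used here. KRT83, the third paralog of this group, had 1 read in the 6 libraries of the first experiment and 0 in the 12 of the second.

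Almost no gene around the pair was expressed. In RefSeq (GRCh38.p14) KRT81, KRT86, KRT7, KRT80, KRT8 and KRT18 lie on chromosome 12, and KRT19 on chromosome 17. KRT18 is a type I gene placed at the end of the type II cluster, where its annotated start overlaps the span of KRT8. Of the 10 genes nearest to KRT81 and KRT86, 5 on each side, 8 had a row and 1, KRT7, had a base mean of at least 10. The pseudogene KRT88P had 8 reads in wild type, 7 in knockout and 3 in G3BP1 rescue, and KRT89P 6, 6 and 5. Of 41 genes between KRT80 and KRT18 that are not among the 7, 37 had a row, and 1 had a base mean of at least 10 in knockout against wild type. This was KRT75, a type II keratin of the hair follicle's companion layer. It had 191 reads in wild type, 22 in knockout and 228 in rescue (summed over 2 libraries), and was lower by -2.40 (SE 0.38) and -2.12 (SE 0.31) in the authors' deposited tables of knockout against wild type and against rescue.

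KRT18 (ENSG00000111057), the type I chain of the simple-epithelial pair, rose upon rescue in the second experiment. Normalised reads were 1713 and 1915 in knockout, 3721 and 3818 in WT rescue and 4310 and 3882 in NTF2 rescue. Every rescue library lay above both knockout libraries. The authors' deposited tables gave log2 fold changes of 1.03 (SE 0.07, adjusted p 1.23e-41) for WT rescue and 1.17 (SE 0.08, adjusted p 9.13e-44) for NTF2 rescue, that is 2.05-fold and 2.24-fold. With the statistics divided by their spread over all genes, KRT18 was not called with WT rescue (adjusted p 0.203) or NTF2 rescue (adjusted p 0.173). The rescues' own difference was not called, at -0.13 (95% interval -0.35 to 0.09, adjusted p 1). In RPM the ratios of rescue to knockout were 1.73 and 1.87 for KRT18, 0.477 and 0.586 for KRT80 and 0.75 and 0.799 for KRT8, so that on this scale KRT80 changed more than KRT18 with WT rescue (log2 -1.07 and 0.79). The 2 scales differ in level: among genes at 100 or more normalised reads, the middle log2 fold change was 0.18 with WT rescue and 0.17 with NTF2 rescue. Genes were called at an adjusted p under 0.05, and 42.1% and 41.5% of all tested genes were called in these comparisons. Of 4 tested members, WT rescue called 3 (KRT18 higher, KRT80 and KRT8 lower) and NTF2 rescue 2 (KRT18 higher, KRT80 lower).

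**Figure D2:**
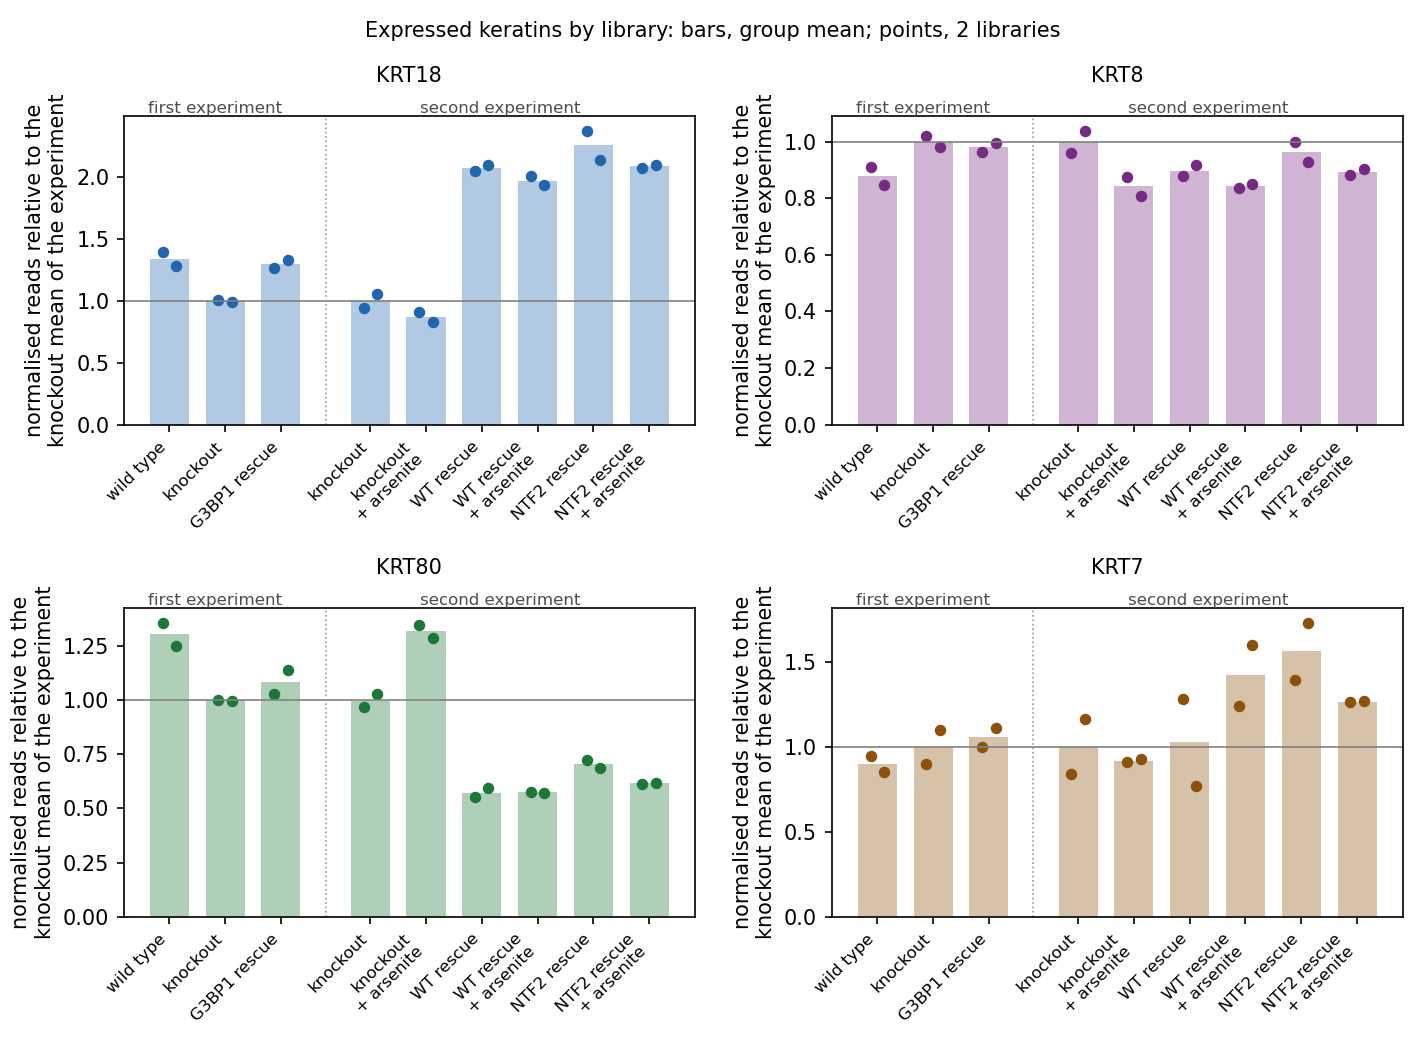
Normalised reads of KRT18, KRT8, KRT80 and KRT7 in each U2OS library, divided by the mean of the untreated knockout libraries of the same experiment (horizontal line at 1); bars are group means and points the 2 libraries. KRT18 lies at 1.94 to 2.38 in all 8 rescue libraries of the second experiment, KRT80 at 0.551 to 0.725 in the same libraries and at 1.29 and 1.35 in arsenite-treated knockout.

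In the first experiment KRT18 moved less and in the same direction with G3BP1. Knockout libraries had 7632 and 7504 normalised reads, rescue libraries 9639 and 10057 and wild-type libraries 10599 and 9690. The rescue and wild-type ranges overlapped, and both knockout libraries lay below them. The authors' deposited table gave KRT18 a log2 fold change of -0.37 in knockout against rescue (SE 0.05, adjusted p 1.60e-13). Knockout against wild type stood at -0.43 (SE 0.06) in the authors' deposited table, a contrast that was used to choose the members and is given without a test. Wild type against rescue was not called in the authors' deposited table (0.04, 95% interval -0.07 to 0.14, adjusted p 0.657). Of the 6 members other than KRT81, 5 were tested in knockout against rescue and 1, KRT18, was called, where 37.6% of all genes were. The share of all genes called in knockout against wild type was 37.8%.

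KRT8 (ENSG00000170421), the type II partner of KRT18, changed little in normalised reads. In the second experiment it had 5424 and 5893 normalised reads in knockout, 4970 and 5198 in WT rescue and 5653 and 5252 in NTF2 rescue. WT rescue libraries lay below both knockout libraries, and NTF2 rescue libraries overlapped with them. In RPM both rescues lay below knockout (411 and 447), with WT rescue at 314 and 329 and NTF2 rescue at 355 and 330. KRT8 fell by 0.17 with WT rescue in the authors' deposited table (SE 0.06, adjusted p 0.0107), and NTF2 rescue was not called in the authors' deposited table (-0.06, 95% interval -0.19 to 0.07, adjusted p 0.539). Centred on that middle value, NTF2 rescue stood at -0.22 and was called (adjusted p 0.00237). The difference between the rescues was -0.12 (95% interval -0.29 to 0.06) and was not called. In the first experiment, the wild-type libraries (17729 and 16482 normalised reads) lay below the rescue libraries (18743 and 19401), a log2 fold change of -0.16 in the authors' deposited table (SE 0.05, adjusted p 0.00273). The authors' deposited table of knockout against rescue gave 0.03 (95% interval -0.05 to 0.12), not called.

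The reads of the pair therefore shifted against each other. Knockout libraries of the second experiment had 0.316 and 0.325 KRT18 reads per KRT8 read, and 0.334 and 0.327 with arsenite. All 8 rescue libraries, with either form of G3BP1 and with or without arsenite, lay between 0.732 and 0.77, and their groups overlapped one another. In the first experiment the ratio was 0.385 and 0.393 in knockout, 0.514 and 0.518 in G3BP1 rescue and 0.598 and 0.588 in wild type, so that none of its 3 groups overlapped. The ratio is of reads and not of molecules, as it is not corrected for transcript length, and with 2 against 2 libraries an exact permutation test cannot give a p below 0.333. Rows of KRT8 and KRT18 pseudogenes summed to 6.14% and 4.67% of the base mean of their parents in knockout against wild type, and 7.87% and 5.45% in WT rescue against knockout. How reads shared with such copies were counted is not given in the sources used here.

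**Figure D3:**
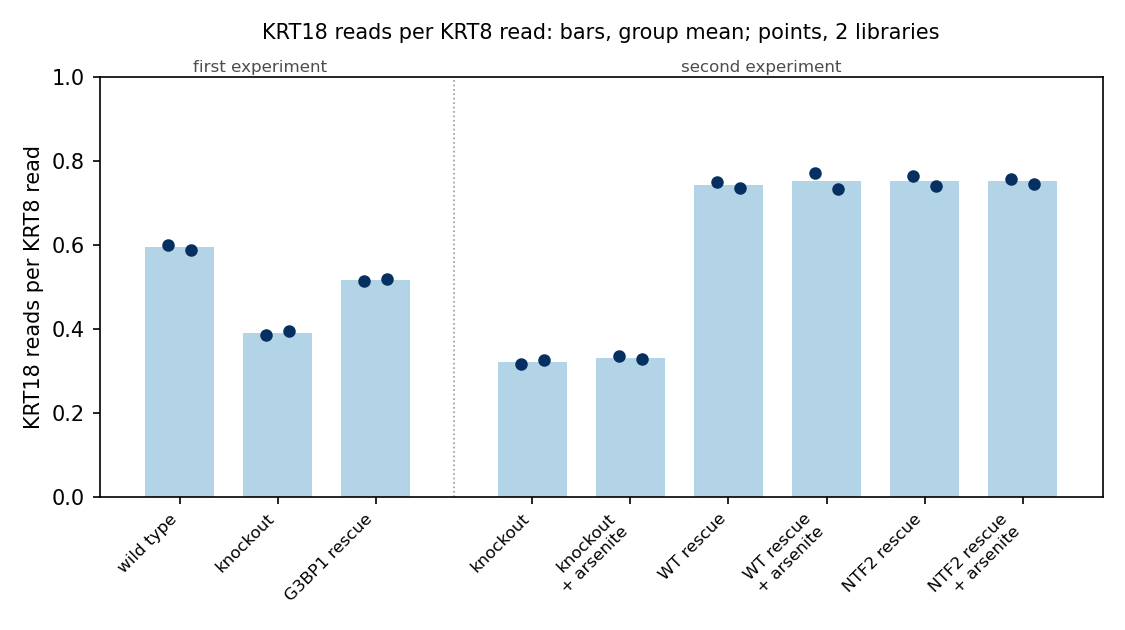
KRT18 reads divided by KRT8 reads in each U2OS library; bars are group means and points the 2 libraries. Knockout libraries lie at 0.316 to 0.393 and rescued or wild-type libraries at 0.514 to 0.77.

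KRT80 (ENSG00000167767), a type II keratin, went the other way in the second experiment. Its normalised reads were 2929 and 3127 in knockout, 1669 and 1795 in WT rescue and 2196 and 2087 in NTF2 rescue. Both rescues lay below knockout, and NTF2 rescue lay above WT rescue in both libraries. In the authors' deposited tables KRT80 fell by 0.82 with WT rescue (SE 0.08, adjusted p 4.95e-25) and by 0.50 with NTF2 rescue (SE 0.08, adjusted p 3.79e-10). The difference between the rescues, -0.32 (95% interval -0.53 to -0.11), was not called over 16210 genes (adjusted p 1), where 0.0185% of genes were. Both rescues were compared with the same knockout libraries, and with the error of those libraries taken out the difference was called (adjusted p 0.0301). In the first experiment the order was another: knockout libraries had 11602 and 11581 normalised reads, rescue libraries 11913 and 13180 and wild-type libraries 15816 and 14513. Knockout against rescue was not called in the authors' deposited table (-0.11, 95% interval -0.21 to -0.01, adjusted p 0.0922), and wild type lay above rescue by 0.27 in the authors' deposited table (SE 0.06, adjusted p 1.51e-05). In wild type against rescue, 2 of 5 tested members other than KRT81 were called, KRT80 higher and KRT8 lower, where 35.6% of all genes were called.

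KRT7 (ENSG00000135480), a type II keratin of simple ducts and glands, was low and not called in any comparison. It had 59 to 84 reads in the libraries of the first experiment and 27 to 86 in those of the second. The largest log2 fold change in the authors' deposited tables was 0.56 for NTF2 rescue against knockout, with a 95% interval of -0.22 to 1.33 (adjusted p 0.282), wide enough to hold a change as large as that of KRT18. KRT19 (ENSG00000171345), a type I chain with a short tail, had 3 reads in the 6 libraries of the first experiment and 4 in the 12 of the second, and was not tested in any U2OS comparison.

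**Figure D4:**
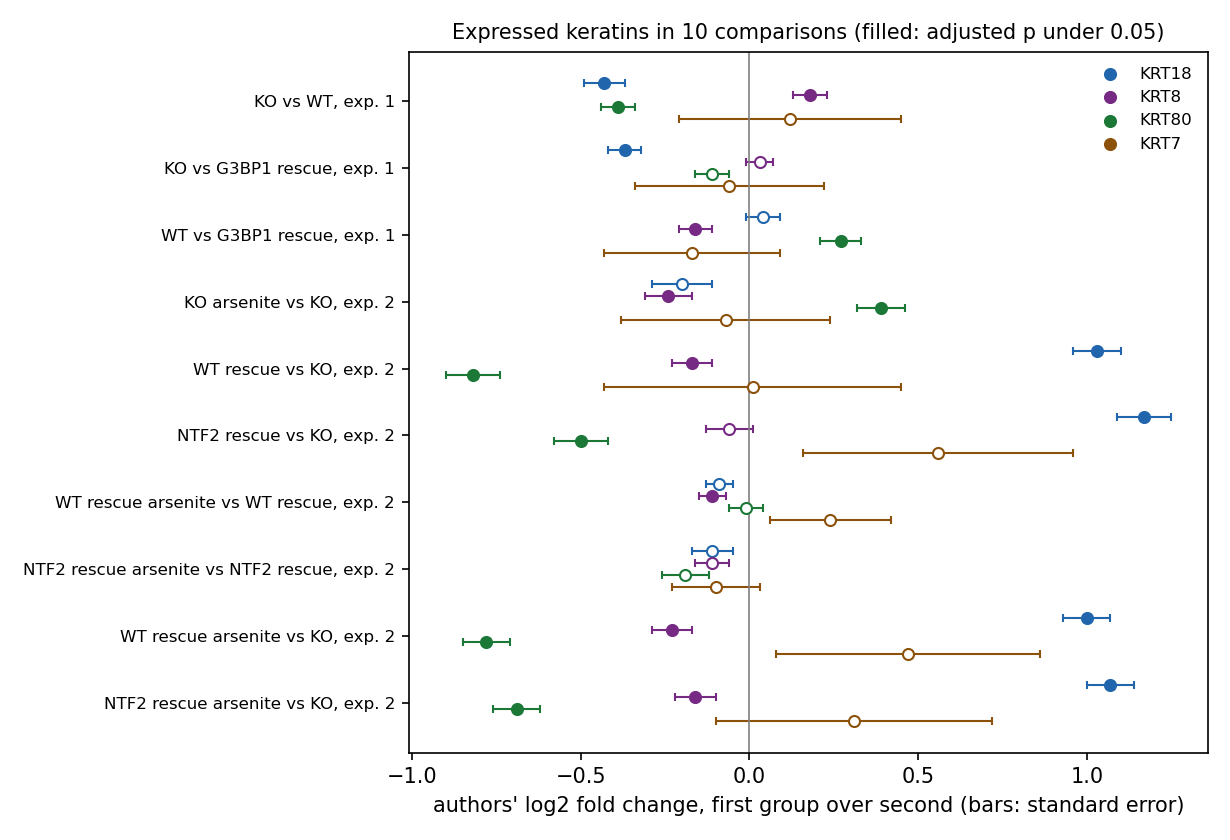
The authors' log2 fold changes with standard errors for KRT18, KRT8, KRT80 and KRT7 in the 10 U2OS comparisons; filled points have an adjusted p under 0.05, KO stands for knockout, and the group named first is divided by the group named second. KRT18 and KRT80 stand on opposite sides of 0 in the 4 comparisons of rescue with knockout in the second experiment (1.00 to 1.17 and -0.82 to -0.50).

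Arsenite raised KRT80 in knockout cells and in neither rescue. With arsenite, knockout libraries had 4088 and 3899 normalised KRT80 reads, above both untreated libraries (2929 and 3127). WT rescue libraries stayed at 1748 and 1732 against 1669 and 1795, and NTF2 rescue libraries were at 1860 and 1878 against 2196 and 2087. The authors' deposited tables gave 0.39 for knockout (SE 0.07, adjusted p 7.50e-07), -0.01 for WT rescue (SE 0.05, adjusted p 0.925) and -0.19 for NTF2 rescue (SE 0.07, adjusted p 0.0515). The difference of the responses, tested over every gene at 10 or more normalised reads in both tables, was -0.41 for WT rescue minus knockout (95% interval -0.58 to -0.23, adjusted p 0.000415) and -0.58 for NTF2 rescue minus knockout (-0.78 to -0.39, adjusted p 2.06e-07). Of 4 members tested, KRT80 was the 1 called in each, where 4.51% and 7.12% of all genes were called. WT minus NTF2 rescue was 0.18 in this response (0.01 to 0.35, unadjusted p 0.0398), which was not called over all genes (adjusted p 1). No member was called there, beside 0.328% of genes.

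The arsenite response of KRT8 was slightly negative in knockout and in both rescues, and was called in knockout and WT rescue. The authors' deposited tables gave -0.24 in knockout (SE 0.07, adjusted p 0.00398), -0.11 in WT rescue (SE 0.04, adjusted p 0.0272) and -0.11 in NTF2 rescue (SE 0.05, adjusted p 0.194). No difference between these responses was called, with 0.13 (95% interval -0.02 to 0.29) for WT rescue minus knockout and 0.13 (-0.04 to 0.30) for NTF2 rescue minus knockout. KRT18 was not called in any of the 3 responses, for which the authors' deposited tables gave -0.20, -0.09 and -0.11 with adjusted p 0.147, 0.111 and 0.29. In knockout 2 of 4 tested members were called (KRT80 higher, KRT8 lower) beside 19.4% of all genes, in WT rescue 1 of 4 beside 20.4%, and in NTF2 rescue 0 of 3 beside 8.57%. In the last, KRT80 and KRT8 had an unadjusted p of 0.00448 and 0.0281. Arsenite-treated rescues were also compared with untreated knockout, the libraries that the untreated rescues were compared with. The authors' deposited tables gave KRT18 1.00 and 1.07, KRT80 -0.78 and -0.69 and KRT8 -0.23 and -0.16 in treated WT and NTF2 rescue, all called, so that 3 of 4 tested members were called in each, beside 44.9% and 43.0% of all genes.

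RIP used other cells and libraries than those that chose KRT81, and measured which keratin mRNAs were recovered with FLAG-G3BP1. The members as a group were chosen with earlier results of these data known. In the kidney cells KRT8, KRT18 and KRT19 were the abundant members, at base means of 2323, 2313 and 886. All 3 were higher in the immunoprecipitate. The authors' deposited table gave log2 fold changes of 1.95 for KRT18 (SE 0.15, adjusted p 6.20e-36), 1.78 for KRT19 (SE 0.14, adjusted p 1.86e-34) and 1.34 for KRT8 (SE 0.13, adjusted p 1.72e-22). These are 3.85-fold, 3.44-fold and 2.53-fold. Group means worked out from base mean and fold were 3677 normalised reads in the immunoprecipitate and 948 in input for KRT18, 1375 and 397 for KRT19, and 3332 and 1313 for KRT8. Of 4 tested members (KRT80 the fourth) 3 were called, all higher, where 24.7% of all genes were called higher and 56.1% in either direction. KRT18 lay above 97.6% of tested genes, KRT19 above 96.3% and KRT8 above 89.8%. These ranks include genes of low counts: the median log2 fold change was -0.26 over all tested genes and 0.12 at a base mean of at least 100.

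**Figure D5:**
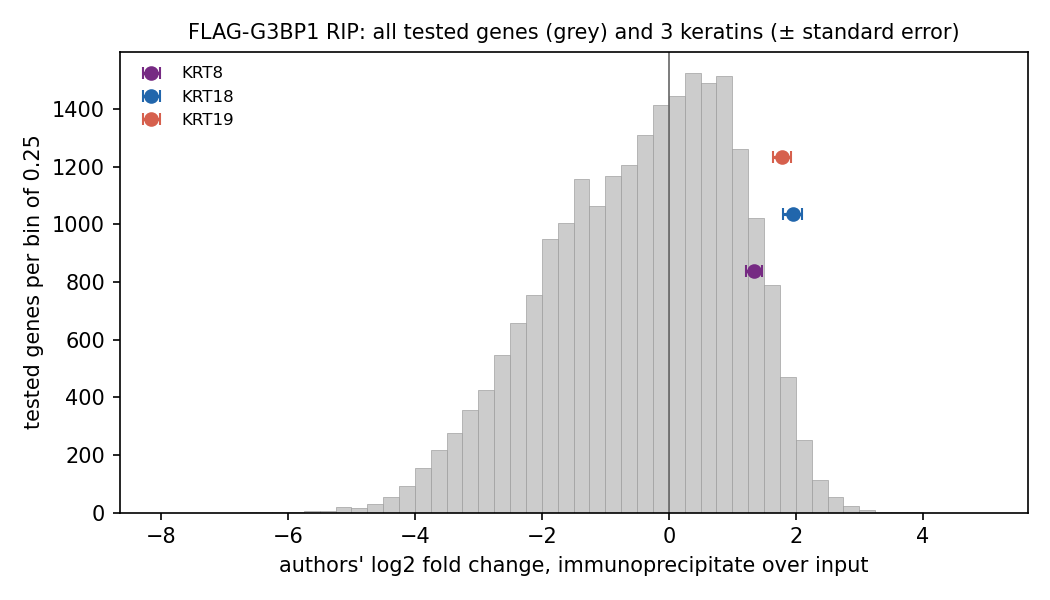
The authors' log2 fold changes of immunoprecipitate over input for all tested genes (grey, genes per bin of 0.25) with KRT8, KRT18 and KRT19 and their standard errors; the height at which the points are drawn has no meaning. The 3 keratins lie at 1.34 to 1.95, in the upper part of a distribution whose median is -0.26.

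The other members were nearly absent from the kidney cells. KRT81 had 2 reads in 3 immunoprecipitates and 0 in 3 inputs, KRT86 0 and 1, KRT7 1 and 0, and KRT80 4 and 6. At these counts no fold can be given, so binding of the KRT81 or KRT80 transcript was not measured by RIP. The length of a gene moved with the RIP result. Genes with an annotated span under 10 kb and a base mean of at least 100 had a median log2 fold change of 0.99 in the authors' deposited table, with 76.4% of 1870 called higher. Genes of 10 to 100 kb had a median of 0.12, with 43.8% of 6231 called higher, and genes of 100 kb or more had a median of -1.25, with 16.5% of 1963 called higher. KRT18 and KRT19 span 4.05 and 4.69 kb, and KRT8 52.7 kb including a distant upstream start. The part of length in the keratin values was not tested. The spread of the statistics was wide in this table, and dividing them by it left none of the 3 keratins called.

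The other 48 keratin genes were mostly silent, and 7 of them had a base mean of 10 or more in knockout against wild type. There, 12 were tested, 0 were higher and 5 lower, where 18.4% of all genes were higher and 19.4% lower, with a median of -0.48 beside 0.01 over all genes tested. In knockout against G3BP1 rescue 1 of 9 was higher and 5 were lower, beside 16.1% and 21.5% of all genes. KRT34, a type I hair keratin, was at -5.59 (SE 0.30) and -5.01 (SE 0.25) in these authors' deposited tables, from 1268 reads in wild type, 14 in knockout and 1326 in rescue. KRT33B, also a type I hair keratin and named after its values were seen, had 104, 0 and 70 reads. Both type I hair keratins had, like KRT81, their reads in wild type and rescue and few or none in knockout. In the second experiment KRT34 had 2 and 0 reads in knockout, 3 and 14 in arsenite-treated knockout, 27 and 9 in WT rescue and 17 and 15 in NTF2 rescue, where KRT81 had 0 and 1 in the rescues. The authors' deposited tables gave KRT34 1.89 (SE 0.61, adjusted p 0.00568) and 1.75 (SE 0.60, adjusted p 0.0106). In RPM, KRT34 in the WT rescue libraries was at 1.9 and 0.653, against 13.3 and 13.5 in the G3BP1 rescue of the first experiment. KRT34 in the second experiment is named after its values were seen.

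In rescue of the second experiment 4 of 6 tested other keratins rose and 1 fell, with both forms of G3BP1. Of all genes, 23% rose and 19.1% fell with WT rescue, and 22.8% and 18.7% with NTF2 rescue. The riser above a base mean of 100 was KRT10, a type I chain of suprabasal skin (0.67 for WT rescue per the authors' deposited table, SE 0.23, adjusted p 0.0113). KRT15 and KRT79, named after their values were seen, went from 6 and 4 reads in knockout to 66 and 58 in WT rescue and 82 and 52 in NTF2 rescue. KRT17, a type I chain induced in wounded and stressed skin, was the one that fell: by 1.96 (SE 0.14, adjusted p 1.23e-40) and 1.73 (SE 0.14, adjusted p 8.13e-35) per the authors' deposited tables. Arsenite raised KRT17 in knockout by 1.63 (adjusted p 1.41e-62, SE 0.10) in the authors' deposited table, from a mean of 1329 ± 231 (SD, n = 2) to 4209 ± 54.6 (SD, n = 2) normalised reads. It was 0.25 in WT rescue (adjusted p 0.104) and -0.00 in NTF2 rescue (adjusted p 0.997) in the authors' deposited tables. The difference of the responses was -1.38 (95% interval -1.67 to -1.09, adjusted p 8.57e-19) and -1.63 (-1.93 to -1.33, adjusted p 1.61e-24), the same signs as for KRT80. In RIP 3 of 7 tested other keratins were higher and 0 lower, beside 24.7% and 31.4% of all genes. KRT10 was among the 3, at a base mean of 503 and with an adjusted p of 1.15e-20 in the authors' deposited table. The others had few reads: KRT17 had a base mean of 11.5, and KRT13, named after its values were seen, 6.81.

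The filament's partners moved in both directions. The counts of this and the next groups stand beside 18.4% of all genes higher and 19.4% lower in knockout against wild type (37.8% called), and 23% higher and 19.1% lower in WT rescue against knockout (42.1% called). Of 17 tested genes for keratin linkers, desmosomes and hemidesmosomes, 4 were higher and 7 lower in knockout against wild type, and 7 were higher and 7 lower in WT rescue against knockout. The hemidesmosome integrin ITGB4 stood at -2.87 (SE 0.09) in the authors' deposited table of knockout against wild type. It was at -1.10 (SE 0.11) in that of knockout against G3BP1 rescue and at -3.34 (SE 0.35) in that of WT rescue against knockout. ITGB4 was thus higher after rescue in the first experiment and lower after rescue in the second. The plaque protein JUP was at 0.99 (SE 0.12) in the authors' deposited table of knockout against wild type. In that of WT rescue against knockout JUP was at -3.20 (SE 0.26). Of the 7 genes higher there, beside 7 lower, ITGA6 was at 1.41 (SE 0.07), COL17A1 at 1.18 (SE 0.28) and PLEC at 0.75 (SE 0.04). In RIP 0 of 17 were higher and 14 lower, beside 24.7% and 31.4% of all genes, with a median of -1.66 beside -0.26, led in the authors' deposited table by the cytolinkers PLEC (-4.48), MACF1 (-4.42) and DST (-4.41), whose genes span 61.6, 403 and 497 kb. Of the other intermediate filament genes, 3 of 11 were higher and 3 lower in knockout against wild type and also in WT rescue against knockout. VIM, the mesenchymal filament protein, was at -0.54 (SE 0.05) and 0.36 (SE 0.04) there in the authors' deposited tables. LMNB2 was at 0.81 and 0.62, NES at 0.66 and 0.36 and NEFL at -0.62 and -1.75, each with the same sign in both. Of the epithelial genes 5 of 18 were higher and 1 lower in knockout against wild type, and 0 of 11 higher and 5 lower in WT rescue. CLDN4, a tight junction protein, led both in the authors' deposited tables, with 3.91 (SE 0.11) and -1.09 (SE 0.12). LSR, the 1 that was lower in knockout against wild type, stood at -0.81 (SE 0.08) there. It was lower in WT rescue too, at -0.55 (SE 0.13). Of the mesenchymal genes 2 of 15 were higher and 9 lower in knockout against wild type, and 4 of 15 higher and 6 lower in WT rescue. Of the hair follicle genes, 2 of 8 were higher and 3 lower in knockout against wild type, and 2 of 6 higher and 1 lower in WT rescue. The authors' deposited table of WT rescue gave 2.00 for LEF1 (adjusted p 4.31e-23) and 1.16 for GATA3 (adjusted p 5.57e-05), both transcription factors of the follicle. HOXC13, a regulator of hair keratin genes, fell by 1.00 in the authors' deposited table of WT rescue (SE 0.25, adjusted p 0.00019). For knockout against wild type the authors' deposited table gave LHX2 3.84 (SE 0.30) and GATA3 0.62 (SE 0.16). MSX2 was at -1.40 (SE 0.21) and LEF1 at -0.32 (SE 0.13) in it. A link of these genes to KRT81 was not tested.

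Across the 10 U2OS comparisons, the genes whose log2 fold changes in the authors' deposited tables were nearest to those of KRT81 were NOS1, NTM, C6orf99, AK5 and MYL2. The root mean square difference was 0.97 for NOS1, 1.41 for NTM, 1.45 for C6orf99, 1.51 for AK5 and 1.55 for MYL2, and its median over 13763 genes was 3.81. KRT81 had 15 reads in the 12 libraries of the second experiment, and its fold changes there were small. The measure therefore mostly ranks genes by how low they were in the knockout of the first experiment, where KRT81 was chosen. In the authors' deposited tables NOS1 stood at -8.33, -6.62 and 1.10 in the first experiment and at 0.78 and 0.66 in the untreated rescues of the second. NTM, a neural adhesion protein, stood at -6.03, -4.68 and 1.16, and at -0.04 and 0.10, in the same authors' deposited tables. For arsenite-treated WT and NTF2 rescue against untreated knockout, the authors' deposited tables gave NOS1 1.32 and 1.74. There NTM was at -0.17 and -0.11 and KRT81 at -0.06 and 0.05. These values are a description, since the comparisons share libraries and KRT81 was chosen for its value in 1 of them.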

How the data were processed

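The authors deposited 11 tables of comparisons, made with STAR 2.7.0f (first U2OS experiment and RIP) or 1.5.3 (second U2OS experiment) and DESeq2 2.11.40.6, per the submitters' processing notes; annotation and strand use are not given in the sources used here. Another 48 of the 72 libraries are not analysed here. The deposited base mean is a signal, the mean of normalised reads over a table's libraries. The deposited fold changes and standard errors are on the log2 scale and shrunken toward 0. The deposited Wald statistic is a score, and the deposited p-values and adjusted p-values are the authors' own. Each table's 4 summary lines were left out. Called means an adjusted p under 0.05.

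Whole reads per library were recovered from the base means: genes with 1 read in 1 library give each library's size factor, and the reads that give a base mean were searched and joined over tables. Each member had 1 solution in both experiments. Libraries were matched between tables by 12280 such genes, with 0 against. The recovered libraries carry no replicate numbers. The 2 libraries of every group differed by more than sampling noise (mean squared standardised difference 1.46 to 1.99 over 483 to 499 genes, where sampling alone gives about 1) and were counted as separate samples. The labels do not say that they come from separate cultures, so p-values measure the spread between these libraries, which may be technical. For RIP, reads were recovered for low genes only.

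Differences between tables were divided by their combined standard error, referred two-sided to the normal curve, with Benjamini-Hochberg adjustment over all genes whose base mean reached 10 in each table. No test was made of members in knockout against wild type, nor of KRT81 in the first experiment. Poisson intervals are at 95%. Scripts (Python 3.11.15, scipy 1.17.1) were tested on simulated data.

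The members, gene lists and tests were chosen with earlier results of these data known. Named genes were the members, at most 3 highest and 3 lowest called genes of base mean 100 or more per list and table, the neighbours, G3BP1 and the 5 genes nearest to KRT81. The alternatives were a change of at least 1, centring, division by the spread, unshrunken ratios, leaving out each library, and other minimums for the difference tests. RefSeq sequence tables held a promoter of 1 member, and no sequence is printed. The marker check of the kidney cells is not reported here.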

Additional observations from a re-analysis of the deposited data

Results flagged for a closer look

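The arsenite response of KRT80 differed between rescued and knockout cells in a test of the difference itself, by -0.41 on the log2 scale for WT rescue minus knockout and by -0.58 for NTF2 rescue minus knockout. KRT17 differed likewise, by -1.38 for WT rescue minus knockout and by -1.63 for NTF2 rescue minus knockout. In all 4 cases the response was positive in knockout cells (0.39 for KRT80 and 1.63 for KRT17). Knockout cells were not transfected and rescued cells were, so lipofection and G3BP1 cannot be told apart in these differences.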

How the results depend on the processing

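Requiring a log2 change of at least 1 left 0 members called in knockout against G3BP1 rescue, wild type against G3BP1 rescue, arsenite in knockout and arsenite in WT rescue, and 1, KRT18, in each of the 4 comparisons of rescue with knockout; it left 0 in both differences of arsenite responses between rescue and knockout. Dividing the statistics by their robust spread left 0 members called in every table but knockout against wild type, which was not tested: the adjusted p of KRT80 became 0.134 for arsenite in knockout, and that of KRT18 became 0.759 in knockout against G3BP1 rescue and 1 in RIP. Centring on the median gave 1 call, KRT80, in arsenite with NTF2 rescue (adjusted p 0.0338), and 1, KRT80, was called in the difference of the unstressed rescues when the error of the shared knockout libraries was removed. No called member changed sign under any of these alternatives. Leaving out each library in turn, KRT18 ranged from 0.98 to 1.14 in WT rescue and from 1.10 to 1.26 in NTF2 rescue, and the arsenite response of KRT80 from 0.35 to 0.45 in knockout, -0.04 to 0.06 in WT rescue and -0.23 to -0.16 in NTF2 rescue. No paired analysis was possible because neither the deposited tables nor the reads recovered from them carry replicate numbers.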
